A study of Mus musculus with 46 samples.

Results

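Of 67472 ATAC-seq peaks counted in sorted nuclei of the mouse arcuate nucleus, 66560 had a mean CPM (counts scaled to the library total) of over 1, and 7226 of these were selective for AgRP-positive nuclei. Peaks were chosen by their counts in these 4 sorted libraries. A peak was taken as selective when the log2 ratio of its mean AgRP-positive to its mean AgRP-negative CPM was at least 2, a fold of 4, and when its lower AgRP-positive value lay above its higher AgRP-negative value. The converse rule gave 1675 peaks selective for AgRP-negative nuclei. Both fractions came from male NuTRAP AgRP mice, a cross of AgRP-IRES-Cre with the NuTRAP reporter that labels nuclei and ribosomes of Cre-expressing cells, on the C57BL/6J strain and aged 6 to 11 weeks. Nuclei of pooled mice fed ad libitum were sorted by their GFP label, and both fractions came from the same pools, with 2 libraries each. A second set of AgRP-positive nuclei from the same line came from fed mice injected with PBS, mice fasted for 18 to 20 h and injected with PBS, and mice fasted likewise and injected with leptin at 5 mg/kg, with 2 libraries per state, and these libraries had no part in the choice of the peaks. Ribosome-associated RNA, obtained by translating ribosome affinity purification (TRAP), was counted in AgRP neurons of the same line (3 fed, 4 fasted and 4 leptin-treated samples) and in POMC neurons of NuTRAP Pomc mice (2 samples per state). The mice of the state and RNA libraries were also aged 6 to 11 weeks. Peak lists of CUT&RUN, which cuts DNA next to an antibody-bound protein, came from fed male mice, for CTCF from AgRP-positive nuclei and whole cerebellum, whose genotype the labels do not give, and for IRF3 from AgRP neurons of the IRF3-2D overexpression model, in which AgRP-IRES-Cre switches on a constitutively active IRF3. Cre was driven from the Agrp or the Pomc locus, so that the label marks cells that expressed Cre at some time, and in the RNA comparison the Cre line and the cell type cannot be told apart.

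AgRP neurons release the neuropeptides AgRP and NPY together with GABA, and they drive feeding when energy stores fall. Leptin, a hormone of adipose tissue, acts on them through a receptor whose signalling leads to phosphorylation of the transcription factor STAT3. ATAC-seq cuts DNA that is not wrapped on nucleosomes, so that peaks mark promoters, enhancers and insulators. AP-1 factors (dimers of FOS and JUN proteins) are induced by neuronal activity and bind enhancers, and CTCF binds insulators and loop anchors that many cell types share.

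The sequences shown first are windows of 101 bases centred on the motif letters in peaks that later results turn on. They were read from the RefSeq GRCm38 genome on the + strand, and capitals mark the match to the AP-1 letters (TGANTCA) or the STAT letters (TTCNNNGAA), in which N is any base. The AP-1 windows lie in peaks at Npy, which encodes neuropeptide Y, at Gad2, a GABA-synthesising enzyme, and in the peaks nearest to or within Abcb11 and Mrpl39, which were among the 5 largest increases with fasting. The Npy and Mrpl39 peaks are intergenic, and the Gad2 and Abcb11 peaks are intronic.
Npy (AP-1, chr6:49821354-49821454): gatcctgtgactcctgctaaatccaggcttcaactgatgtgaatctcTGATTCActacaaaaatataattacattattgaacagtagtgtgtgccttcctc
Npy (AP-1, chr6:49829832-49829932): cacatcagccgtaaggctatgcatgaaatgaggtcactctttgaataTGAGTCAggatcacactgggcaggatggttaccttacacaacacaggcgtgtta
Npy (AP-1, chr6:49797686-49797786): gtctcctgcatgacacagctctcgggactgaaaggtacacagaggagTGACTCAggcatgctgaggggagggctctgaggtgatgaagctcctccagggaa
Npy (AP-1, chr6:49764949-49765049): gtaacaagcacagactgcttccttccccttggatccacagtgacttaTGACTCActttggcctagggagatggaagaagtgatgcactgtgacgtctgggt
Gad2 (AP-1, chr2:22652030-22652130): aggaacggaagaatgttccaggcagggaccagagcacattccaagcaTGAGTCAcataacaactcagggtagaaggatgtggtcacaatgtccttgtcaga
Abcb11 (AP-1, chr2:69323074-69323174): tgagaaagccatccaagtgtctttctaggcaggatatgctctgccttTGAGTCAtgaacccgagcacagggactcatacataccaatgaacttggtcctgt
Mrpl39 (AP-1, chr16:84627189-84627289): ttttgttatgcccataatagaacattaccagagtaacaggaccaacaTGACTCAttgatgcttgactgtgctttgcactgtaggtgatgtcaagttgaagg

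The STAT windows lie in the promoter peak of Agrp itself and in the 5 peaks with the largest increases after leptin, of which the Ptprt peak is intronic and the other leptin-opened ones are intergenic. The window at Agrp falls in an intron of the gene, and that at Ptprt reaches beyond its peak.
Agrp (STAT, chr8:105567961-105568061): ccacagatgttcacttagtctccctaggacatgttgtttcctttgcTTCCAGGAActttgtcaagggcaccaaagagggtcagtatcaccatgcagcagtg
Pappa (STAT, chr4:64948882-64948982): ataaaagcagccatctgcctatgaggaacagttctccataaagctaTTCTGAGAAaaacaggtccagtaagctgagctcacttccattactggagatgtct
Ptprt (STAT, chr2:162244751-162244851): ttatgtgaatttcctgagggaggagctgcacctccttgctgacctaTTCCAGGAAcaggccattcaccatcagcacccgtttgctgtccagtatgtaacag
Snapc3 (STAT, chr4:83394551-83394651): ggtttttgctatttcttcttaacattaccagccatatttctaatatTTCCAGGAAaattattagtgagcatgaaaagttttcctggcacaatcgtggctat
Lypd6 (STAT, chr2:50009104-50009204): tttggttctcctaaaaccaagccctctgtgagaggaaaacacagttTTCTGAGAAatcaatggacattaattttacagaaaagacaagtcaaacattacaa
Htr1a (STAT, chr13:105532307-105532407): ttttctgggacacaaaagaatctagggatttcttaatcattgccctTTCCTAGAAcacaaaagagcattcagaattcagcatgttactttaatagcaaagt

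Libraries of the same sorted fraction resembled each other more than those of different fractions. The AgRP-negative libraries held 8685497 and 8847661 counts in peaks and the AgRP-positive libraries 10802847 and 11177208. The selective peaks took 1.24% and 1.27% of the counts of the negative libraries and 7.81% and 8.07% of those of the positive libraries. Across all peaks, log2(CPM + 0.5) correlated at 0.955 between the negative libraries, at 0.952 between the positive libraries and at 0.770 to 0.780 between fractions, a description over peaks that share libraries. The fractions also differed in mitochondrial counts (6.17% and 6.02% against 4.39% and 4.05%) and in the share of the 6 largest peaks (17.5% and 17.3% against 12.2% and 11.3%), and a scaling of the libraries for composition (TMM, with factors of 0.935 and 0.954 for negative and 1.04 and 1.07 for positive libraries) left 5860 of the 7226 peaks past the ratio.

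By construction the selective peaks were high in positive nuclei, with a median mean CPM of 8.26 (quartiles 4.67 and 14.1) against 1.32 (0.796 and 2.23) in negative nuclei and a median log2 ratio of 2.51 (highest 5.68). These values chose the peaks and are given without a test. The threshold cut through a continuous distribution, with 919 peaks at a log2 ratio of 1.9 to under 2 and 830 at 2 to under 2.1. The 5 peaks just inside it had mean positive CPM of 2.73 to 10.4 and the 5 just outside 2.96 to 19.2. Only 4 peaks past the ratio were dropped because the libraries of the fractions overlapped. In bulk nuclei, fewer cells with an open site and a less open site per cell cannot be told apart, and a sorted fraction holds whatever else carried the label.

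Marker genes were set beside the sorted fractions. The same libraries chose the peaks, and the lists were made with earlier results of these data known. The counts are therefore a description and no independent check of the label. Of 26 genes listed for AgRP neurons, 19 were nearest to at least 1 selective peak, with 64 such peaks, of which 43 were intergenic and up to 428495 bases from the start site. Of the other lists, 3 of 9 POMC neuron genes (7 peaks at Cartpt, Tbx3 and Pcsk1), 4 of 17 genes of other arcuate neurons (5 peaks), 1 of 8 astrocyte genes (7 peaks, all nearest to Sox9), 3 of 9 genes of tanycytes and ependyma (11 peaks), 2 of 6 endothelial and mural genes (6 peaks), 4 of 6 pan-neuronal genes (5 peaks), 0 of 10 oligodendrocyte genes and 0 of 7 microglial genes had a selective peak. Of the 16238 genes nearest to any peak, 23.3% had a selective one, and of the smaller lists several lie near that share. The oligodendrocyte genes were instead nearest to 9 peaks selective for negative nuclei. Summed promoter CPM of the AgRP list was 373 and 392 in negative libraries against 745 and 721 in positive libraries. It was 90.7 and 91.9 against 122 and 113 for the POMC list, 40.2 and 37.5 against 19.3 and 20.8 for other arcuate neurons, 311 and 329 against 292 and 293 for pan-neuronal genes, and 90.4 and 95.5 against 74.1 and 94.7 for tanycytes and ependyma. In the last list Sox2 was lower in positive nuclei (40.0 and 40.0 against 12.8 and 16.8 CPM), Vim, an intermediate filament gene (15.2 and 16.5 against 31.7 and 38.6 CPM), and Dio2, a deiodinase gene (2.99 and 2.83 against 4.26 and 4.92 CPM), were higher, and at Col23a1 and Foxj1 the libraries of the fractions overlapped. The same sum for oligodendrocytes was 82.8 and 80.5 against 61.4 and 66.8, and that for astrocytes 73.9 and 76.7 against 57.0 and 47.4. The largest promoter peaks of these lists were those of Agrp, Mbp and Slc1a2, and the glial sums were carried by Mbp (38.8 and 31.6 against 42.7 and 44.3 CPM) and Slc1a2 (42.4 and 39.3 against 36.4 and 28.1 CPM). The promoters of Olig1 and Olig2, oligodendrocyte lineage factors, were lower in positive nuclei, at 17.7 and 17.0 against 2.50 and 3.31 CPM for Olig1 and 6.33 and 4.86 against 1.20 and 1.25 CPM for Olig2, as was that of the astrocyte gene Aldh1l1 (6.33 and 5.09 against 1.48 and 1.52 CPM), whereas that of Aqp4, an astrocyte water channel gene, was higher (1.61 and 2.83 against 4.54 and 3.76 CPM). No microglial, endothelial or mural gene of the lists had a promoter peak in this table.

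A selective peak lay at the promoter of Agrp itself. This peak (chr8:105567432-105568470, GRCm38, the fourth highest of all selective peaks in positive nuclei) measured 6.56 and 8.48 CPM in the negative libraries and 86.9 and 89.6 CPM in the positive libraries. It was the only peak of the table for which Agrp was the nearest gene. The Npy promoter peak (chr6:49822319-49822966) measured 3.80 and 2.83 against 26.9 and 23.8 CPM. At Corin, a transmembrane serine protease, the promoter peak (chr5:72503647-72504501) measured 3.91 and 1.92 against 13.1 and 14.2 CPM. In all 3 the fractions were far apart, and in none did the libraries overlap, as the rule requires.

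**Figure D1:**
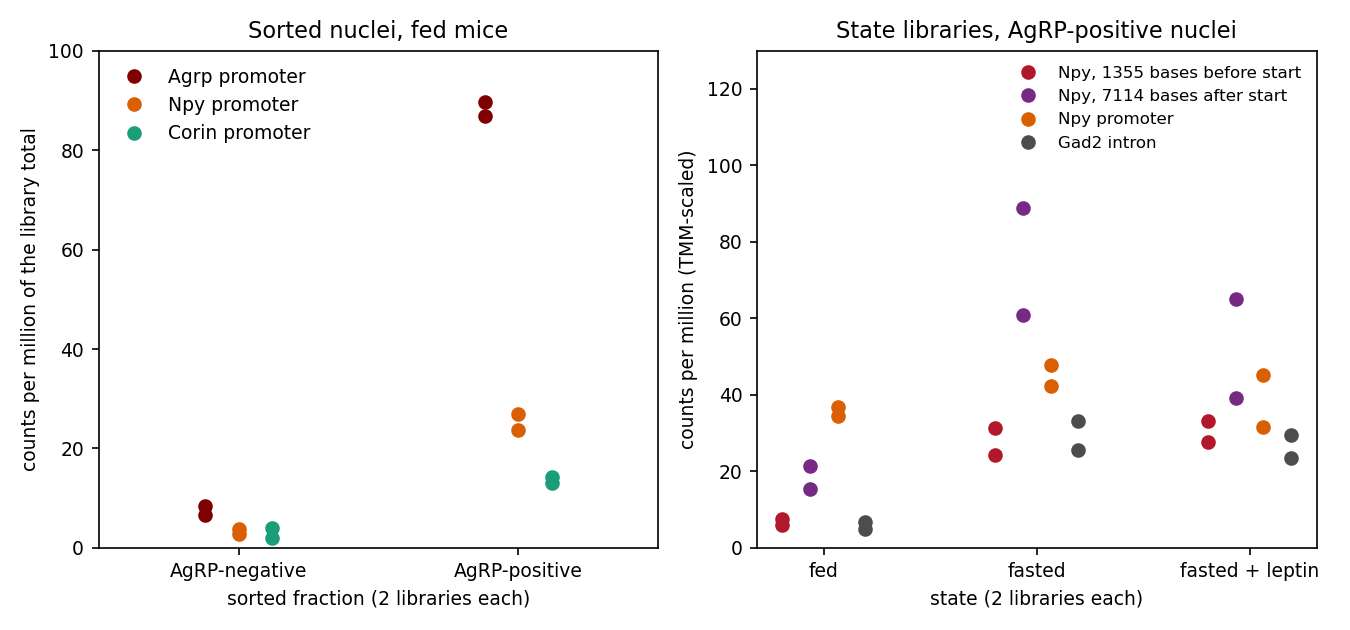
Left, CPM of the promoter peaks of Agrp, Npy and Corin in each sorted library of fed mice (points, 2 per fraction). Right, TMM-scaled CPM of 3 Npy peaks and 1 intronic Gad2 peak in the 2 libraries of each state. The Agrp promoter lies at 86.9 and 89.6 in positive nuclei, and the state peak of 2964 bases over the Npy peak 7114 bases after the start site rises from 21.4 and 15.5 in fed to 89.0 and 61.0 in fasted mice, while the Npy promoter moves little.

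Agrp, Npy and Corin promoters were exceptions, since only 70 of the 7226 selective peaks (0.969%) lay in a promoter, taken as 1000 bases before to 100 after a protein-coding start site. Of all 66560 peaks, 20.8% did. Promoters were also scarce among peaks selective for negative nuclei (4.96%) and among those at a log2 ratio of 1 to under 2 (2.07%). Intergenic sequence held 3980 selective peaks (55.1%, against 37.5% of all), introns 3043 (42.1% against 38.2%) and exons 133 (1.84% against 3.40%). The median distance to the nearest start site was 62834 bases, against 24352 for all peaks and 54644 for peaks selective for negative nuclei, and 22.3% of selective peaks lay over 200000 bases from any start site (11.3% of all). Their length was ordinary (median 455 against 447 bases), whereas their GC content was low (median 41.7% of the central 300 bases, against 49.7%). Peaks selective for negative nuclei had medians of 293 bases and 47.7%. On chromosome 11, 305 of 3696 peaks were selective (8.25%), and on X 250 of 1792, the lowest and the highest share of any chromosome.

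**Figure D2:**
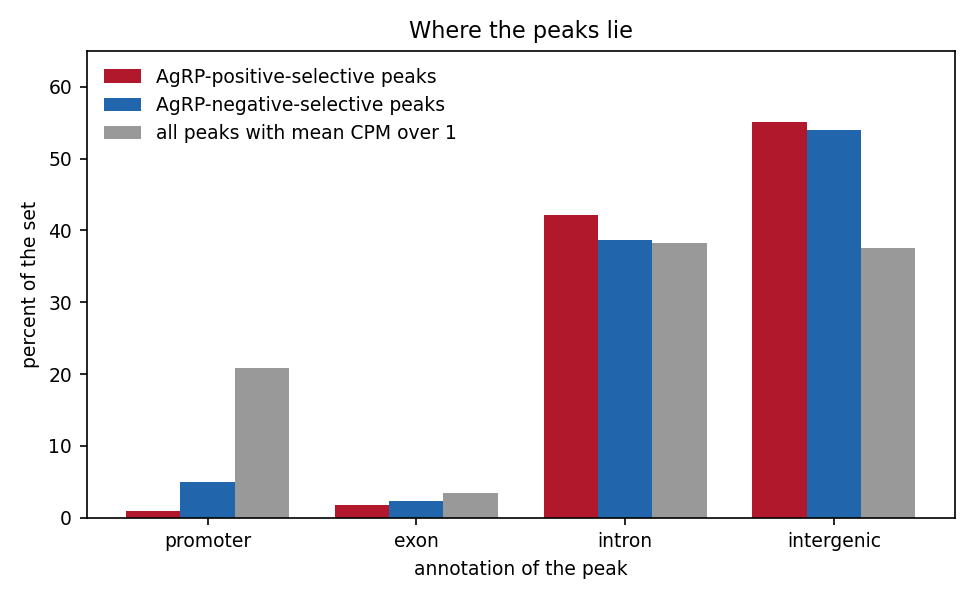
Percent of peaks (vertical axis) by annotation (horizontal axis) for the 7226 peaks selective for AgRP-positive nuclei, the 1675 selective for AgRP-negative nuclei and all 66560 peaks. Promoters hold 0.969% of AgRP-positive-selective peaks and 20.8% of all.

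The selective peaks were nearest to 3776 protein-coding genes, of which 2232 had 1 selective peak and 26 had 10 or more, with 316 of the 7226 peaks at these 26. The most were at Ptprd (17 of its 56 peaks, beside 10.9% selective among all peaks), a receptor tyrosine phosphatase of synapses, and at Csmd1, Dlg2 and Pde4d (16 each, of 34, 52 and 67 peaks), of which Dlg2 encodes a postsynaptic scaffold and Pde4d a cAMP phosphodiesterase. Cntnap2 (15), Unc5d (14), Olfm4 and Pcdh7 (13 each) and Ccser1 and Celf4 (12 each) followed. In TRAP RNA none of the 9 of these genes that were tested passed the test between 3 AgRP and 2 POMC samples, with log2 fold changes from -0.22 to 0.47 and adjusted p-values of 0.169 or higher (edgeR quasi-likelihood test, Benjamini-Hochberg), which does not show that they were equal. Pcdh7 measured 347, 356 and 347 CPM in AgRP and 235 and 270 CPM in POMC samples, which did not overlap.

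Of the 10 highest selective peaks 8 were intergenic. After the intergenic peaks nearest to Lrrn3 (93.3 and 91.3 CPM in positive against 8.87 and 11.3 in negative nuclei), Sub1 (80.8 and 97.2 against 20.6 and 18.3) and Stpg2 (84.6 and 92.5 against 19.6 and 20.1) came the Agrp promoter, an intron of Themis, and intergenic peaks nearest to Rtl1, Rasgrp1, Npepl1, Tiam1 and Mdm1. The largest ratio, ranked after adding 0.1 CPM, was at a peak 53215 bases upstream of Try4 (chr6:41248782-41249325), with 0.691 and 0.226 CPM in negative and 24.4 and 22.6 CPM in positive nuclei. Of the 10 peaks with the largest ratios 9 were intergenic, and the other lay in an intron of Nceh1 with Tnfsf10 as the nearest start site.

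The STAT, AP-1, glucocorticoid-type and MAF letters were over 2 times as frequent in selective peaks as in all peaks. In the central 300 bases, the AP-1 letters occurred in 2761 selective peaks (38.2%), against 17.8% of all peaks and 8.54% of peaks selective for negative nuclei. The STAT letters occurred in 1746 (24.2%, against 11.1% and 9.43%). A glucocorticoid-type palindrome (GNACA, then 3 of any base, then TGTNC) occurred in 267 (3.69%, against 1.73% and 2.39%), and the MAF letters, which contain the AP-1 letters, in 2.74% (1.31% and 0.179%). The FOX letters (TGTTTAC) occurred in 6.71% against 4.18% of all peaks, and the CRE letters (TGACGTCA) in 0.872% against 0.999%. Both strands were searched for 23 sets of letters, and a match is a description of sequence, not of binding.

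The SP, CTCF and EGR letters were scarce. The SP letters (GGGCGG) occurred in 2.19% of selective peaks against 20.9% of all peaks, and the CTCF letters in 2.10% against 11.7%. The EGR letters (GCGTGGGCG) occurred in 1 selective peak (0.0138%, against 0.406%). Since the selective peaks were distal and AT-rich, the shares were also counted among non-promoter peaks within the middle GC range of the selective peaks, a choice made after the data were seen. There 38.0% of 3639 selective and 24.1% of 13913 other peaks held the AP-1 letters, 24.5% and 14.5% the STAT letters, and 1.51% and 8.60% the CTCF letters, whereas the SP letters (1.32% and 2.08%) and the IRF letters (6.21% and 5.97%) lay close together.

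AP-1 and STAT letters followed different courses along the ratio. The AP-1 share was 37.7% in peaks with a log2 ratio of 1 to under 2, just below the threshold, 39.5% at 2 to under 3, 34.5% at 3 to under 4 and 23.9% at 4 or more. The STAT share climbed through the same bands, from 16.6% to 22.5%, 29.6% and 36.2%. AP-1 and STAT letters stood together in 573 selective peaks (7.93%, against 2.51% of all peaks), and 3128 (43.3%, against 72.4%) held none of the AP-1, STAT and glucocorticoid letters.

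**Figure D3:**
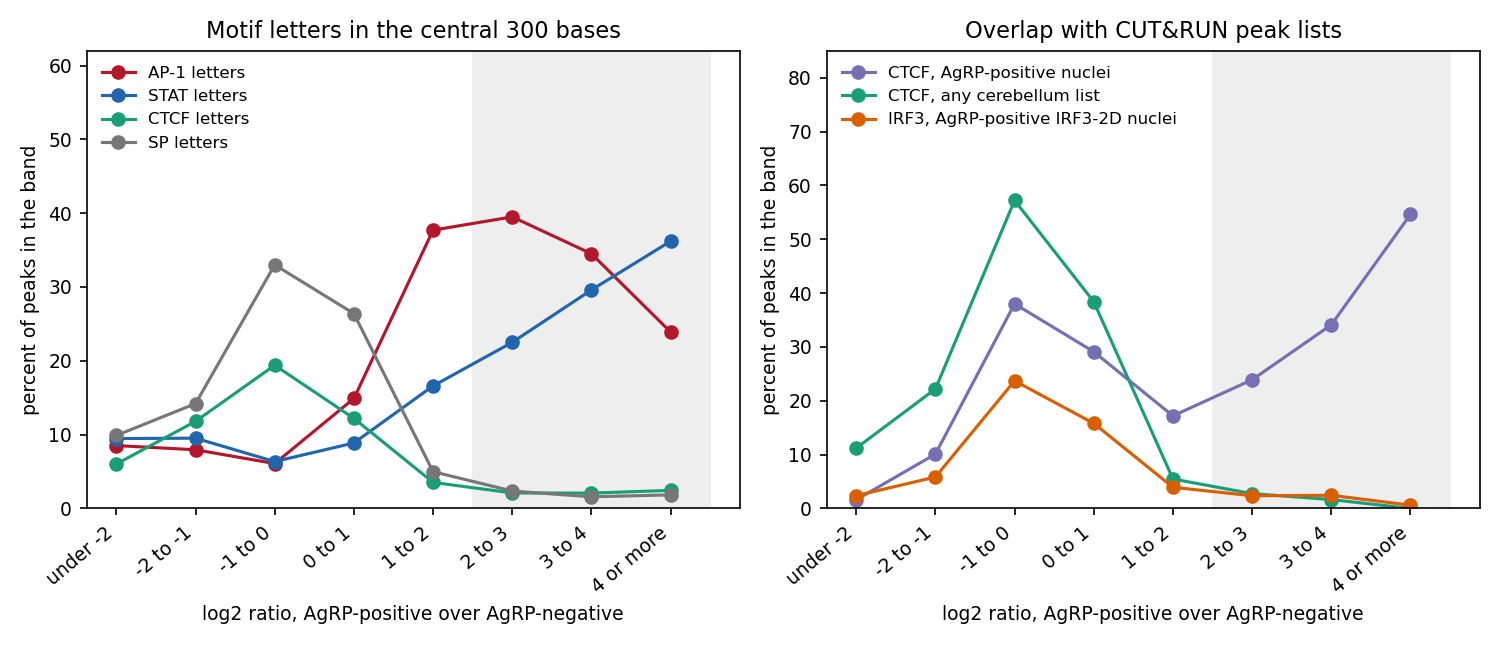
Percent of peaks in each band of the log2 ratio of AgRP-positive to AgRP-negative CPM (horizontal axis, grey for the selective range) that hold the letters named (left) or overlap a CUT&RUN peak list (right). STAT letters reach 36.2% and the AgRP CTCF list 54.6% at a ratio of 4 or more, where the cerebellum CTCF lists reach 0%.

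CTCF had also been profiled by CUT&RUN in AgRP-positive nuclei and in 4 cerebellum samples, with 1 sample per list and hence no replicate check. The list from AgRP-positive nuclei shared at least 1 base with 1922 selective peaks (26.6%), a share near that of all peaks (27.5%). The cerebellum lists overlapped 32.9% of all peaks, but 5.47% of those at a log2 ratio of 1 to under 2. They also overlapped few peaks selective for either fraction, with 187 of 1675 for negative nuclei and 179 (2.48%) for positive nuclei. Thus 1848 selective peaks (25.6%, against 9.46% of all) were in the AgRP list alone, and 74 (1.02%) in the lists of both tissues, which 12010 of all peaks were.

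These CTCF-listed selective peaks mostly lacked the CTCF letters. The letters stood in 43 of the 1922 (2.24%), but in 24.0% of the 16384 other peaks in the AgRP list. Their fold enrichment in the CTCF sample was lower (median 4.00 against 5.25), and they were the more open selective peaks, with a median of 14.4 CPM in positive nuclei against 6.78 CPM for selective peaks in no CTCF list. All 10 selective peaks with the highest CPM and 9 of the 10 with the largest ratios were in the AgRP CTCF list, and 0 of the former and 0 of the latter held CTCF letters. The part that openness itself plays in the listing was not tested.

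IRF3, an interferon regulatory factor, had been profiled in AgRP neurons of the IRF3-2D model, again in 1 sample. The list was taken as that of IRF3 because it is the only one made with SEACR, the caller that the description of the IRF3 sample gives, while the name of the list itself does not give the protein. It overlapped 169 selective peaks (2.34%) against 13.7% of all peaks, with a median maximum signal of 16.0 against 19.0. The share was also low among peaks selective for negative nuclei (2.39%) and at a log2 ratio of 1 to under 2 (3.93%). It was 23.7% at a log2 ratio of -1 to under 0, where 34.3% of peaks lay in promoters. The 3 selective peaks with the strongest signal lay nearest to Myh15 (37.0), in an intron of Sdk2 (36.0) and nearest to Ndn (35.0), all 3 of which were also in the AgRP CTCF list.

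The state libraries were used to follow the selective peaks through fasting and leptin. Of the 7226, 7045 shared at least 1 base with a peak of the study's list for these libraries, giving 7038 state peaks, of which 7036 passed a mean of 1 CPM and were tested. The 181 others were not followed. State values are those of the whole state peak, which was longer than the selective peak it shares bases with (median 634 against 463 bases) and over 2 times as long for 984 of the 7036, and the coordinates given are those of the selective peak. Library totals were 8263234 and 14324992 counts in fed, 15745558 and 15710305 in fasted and 14455862 and 17190963 in leptin-treated mice. The followed peaks took 8.82% and 7.78% of counts in fed, 10.2% and 8.79% in fasted and 10.3% and 9.42% in leptin-treated libraries, whereas promoter peaks took 48.0% and 51.4%, 43.2% and 44.7%, and 42.3% and 43.6%. This difference in the promoter share moved with the state, and its part in the results that follow was not tested.

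Fasting moved the selective peaks in both directions. With edgeR's quasi-likelihood test, 1635 of 7036 (23.2%) were fasted-opened (adjusted p under 0.05 over all peaks and a log2 fold change of at least 0.5), against 18.1% of all 102237 peaks tested. Another 1422 (20.2%) were fasted-closed, against 8.88% of all peaks. Among the 53579 tested peaks that are also in the sorted-nuclei table, 9.99% were opened and 12.6% closed. In the band just below the threshold, at a log2 ratio of 1 to under 2, 22.1% opened and 16.4% closed, near the shares of the selective peaks, and at 3 or more 18.7% and 25.1% did. The median log2 fold change of the selective peaks was 0.07 (quartiles -0.71 and 0.75), beside -0.04 over all peaks tested. Without the first fed library the fasted-closed count was 891, with 1190 opened, and without the second fasted library it was 948.

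Whether a selective peak opened or closed went with its AP-1 letters. Of 2735 followed peaks with these letters 1172 (42.9%) opened and 97 (3.55%) closed, with a median log2 fold change of 0.66. Of 4301 without them 463 (10.8%) opened and 1325 (30.8%) closed, with a median of -0.39. In 8165 other peaks with the letters 31.6% opened and 3.39% closed, and among other peaks without them 2.97% opened and 13.2% closed. The split kept its direction without each library in turn, with medians from 0.51 to 0.91 for peaks with AP-1 letters and 774 (without the first fed library) to 1148 of them opened.

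The 5 largest openings were at single distal peaks. In an intron of Abcb11, a bile salt transporter, the peak (chr2:69322777-69323403) measured 1.64 and 7.09 CPM in fed and 51.5 and 43.8 CPM in fasted mice, so that the groups were well apart, a log2 fold change of 3.26 (SE 0.31, adjusted p = 5.16e-06, edgeR quasi-likelihood test). Others were in an intron of Otud7a (3.64) and near Sphkap (3.54) and Mrpl39 (3.20), and 3 of the 5 held AP-1 letters. The 5 largest closings included peaks in introns of Ppfia2 (-4.40), Slit2 (-4.23), Fam110b (-4.03) and Corin (-3.89), and 0 of the 5 held AP-1 letters. At Ppfia2, a presynaptic scaffold gene, the peak (chr10:106539566-106539883) fell from 9.44 and 6.36 to 0.388 and 0.316 CPM (SE 0.50, adjusted p = 1.66e-05, edgeR quasi-likelihood test). At Slit2, an axon guidance gene, it fell from 7.30 and 7.39 to 0.259 and 0.505 CPM.

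Npy showed openings next to a promoter that did not pass the test. Of the 10 selective peaks nearest to Npy, 5 opened and 1 closed with fasting. The peak 1355 bases upstream of the start site (chr6:49821160-49821550) measured 5.92 and 7.61 CPM in fed and 31.3 and 24.2 CPM in fasted libraries, a log2 fold change of 2.00 (SE 0.27, adjusted p = 4.86e-05, edgeR quasi-likelihood test). The peak 7114 bases downstream (chr6:49829621-49830026, 406 bases) could be followed only through a state peak of 2964 bases (chr6:49828283-49831246), which measured 21.4 and 15.5 against 89.0 and 61.0 CPM (2.06, SE 0.24, adjusted p = 2.10e-05, same edgeR test). Fed and fasted libraries did not overlap at either peak. The peaks 57688 and 25028 bases upstream also opened (2.00 and 1.21), and all 4 hold AP-1 letters, shown in the windows above. The fifth, 167846 bases upstream, opened by 0.83 without AP-1 letters. At the promoter itself the libraries measured 34.5 and 36.8 against 47.8 and 42.3 CPM (0.33, SE 0.19, adjusted p = 0.195, edgeR). At the Agrp promoter, 118 and 105 CPM in fed stood against 144 and 122 CPM in fasted mice (0.26, SE 0.12, adjusted p = 0.104, edgeR).

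Across the 64 selective peaks of the AgRP gene list, 14 opened and 14 closed with fasting, 21.9% each and near the 23.2% and 20.2% of all followed peaks. Gad2 held an intronic peak (chr2:22651909-22652216) that rose from 5.04 and 6.65 to 33.1 and 25.5 CPM (log2 fold change 2.28, SE 0.28, adjusted p = 2.68e-05, edgeR), with AP-1 letters. Isl1, a LIM-homeodomain factor of arcuate neurons, had 2 opened peaks, 428495 and 291492 bases downstream (1.24 and 1.02), and a closed one 53263 bases downstream (-2.59). At Nr5a2, a nuclear receptor gene, a peak 327560 bases upstream opened (2.02) and peaks 131071 and 400763 bases away closed (-0.85 and -0.94). Lepr, the leptin receptor gene, had a peak 15758 bases upstream that fell from 45.8 and 41.8 to 28.0 and 15.7 CPM with fasting (adjusted p = 0.00327, edgeR), and its other 2 selective peaks did not pass the test (0.07 and 0.49). At Corin, the intronic peak 96887 bases from the start site opened (1.45) while the one at 71271 bases closed from 5.79 and 4.24 to 0.388 and 0.252 CPM. AP-1 letters stood in 21 of the 64 peaks, of which 11 opened (at Npy, Gad2, Corin, Cited1, Sst, Isl1 and Nr5a2), 1 closed (at Mc3r, a melanocortin receptor gene, -0.58, adjusted p = 0.0400, edgeR) and 9 were not called, among them peaks at Npy, Acvr1c, Gpr6, Gad2 and Insr.

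Leptin after fasting moved fewer peaks, and most that moved opened. This comparison shares the fasted libraries with the previous one. Of the 7036 followed peaks 523 (7.43%) were leptin-opened, against 2.41% of all peaks tested, and 173 (2.46%) were leptin-closed, against 0.669% (edgeR quasi-likelihood test, same call). The closed count was 323 when fasted and leptin libraries were fitted alone and 455 with the replicate number as a block. Shares over all peaks under these fits are not given here, so that these counts cannot be set beside those of other peaks. Among peaks also in the sorted-nuclei table the shares were 1.98% and 0.789%. The median log2 fold change was -0.02 (quartiles -0.37 and 0.39), the same as over all peaks tested. The opened share differed between ratio bands, with 3 of 43 peaks (6.98%) at a log2 ratio under -2, 0.873% at -2 to under -1, 0.164% at -1 to under 0, 0.800% at 0 to under 1, 3.34% at 1 to under 2, 6.60% at 2 to under 3 and 10.4% at 3 or more. The counts depended on single libraries, with 164 opened and 4 closed peaks without the first fasted library, 175 and 35 without the first leptin library, 215 and 0 without the second leptin library, and 381 and 401 without the second fasted library.

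Leptin opened a larger share of the peaks with STAT letters than of those without. Of 1700 followed peaks with them 254 (14.9%) opened and 18 (1.06%) closed, with a median log2 fold change of 0.27, and of 5336 without them 269 (5.04%) opened and 155 (2.90%) closed, with a median of -0.09. In other peaks the opened share was 4.26% with and 0.819% without the letters. Leaving out each library in turn gave 65 to 226 opened peaks with STAT letters, and medians of 0.21 to 0.32 with the letters and of -0.17 to 0.06 without them. The 65 came without the first fasted library, and 86 and 99 opened without the first and the second leptin library. The 266 followed peaks with the glucocorticoid-type palindrome had a median of -0.25 after leptin (3.38% opened, 3.76% closed), against -0.01 without it (7.59% and 2.41%), and the median of other peaks with the palindrome was -0.33. The 63 followed peaks with CRE letters had a median of -0.38. In the fasting comparison the peaks with STAT letters had a median of -0.17, with 16.2% opened and 23.8% closed, against 0.15 without the letters (25.5% and 19.1%).

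**Figure D4:**
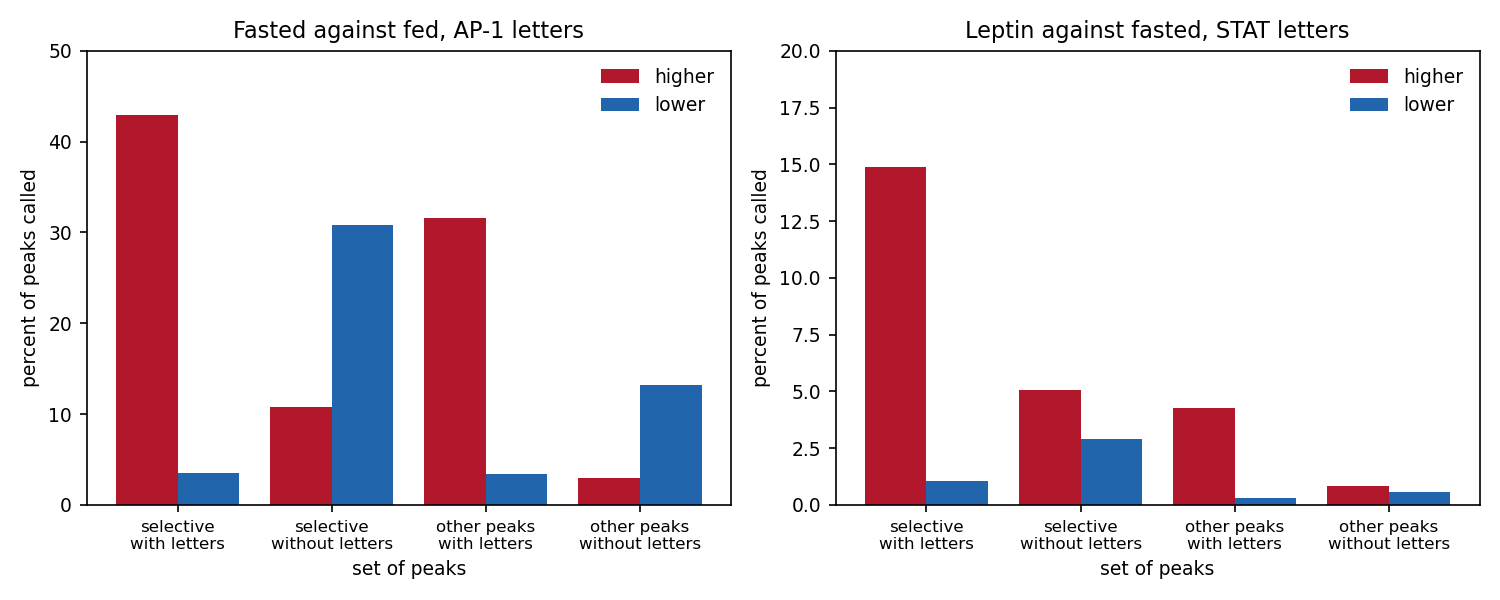
Percent of tested peaks called higher (red) or lower (blue) for peaks selective for AgRP-positive nuclei and other peaks, with and without the AP-1 letters (left, fasted against fed) or the STAT letters (right, leptin against fasted). Opened peaks make up 42.9% of selective peaks with AP-1 letters in fasting and 14.9% of those with STAT letters after leptin, against 10.8% and 5.04% of those without.

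All 5 of the largest leptin openings held STAT letters. The peak 175256 bases upstream of Pappa (chr4:64948743-64949093), a metalloprotease gene, measured 2.01 and 2.12 CPM in fed, 0.388 and 0.694 CPM in fasted and 7.75 and 6.22 CPM in leptin-treated libraries, a log2 fold change of 3.65 over the fasted state (SE 0.44, adjusted p = 1.32e-04, edgeR quasi-likelihood test). In an intron of Ptprt, whose product is a receptor tyrosine phosphatase, the peak measured 0.711 and 0.694 against 8.17 and 8.77 CPM (3.58, SE 0.42). Near Htr1a, the serotonin 1A receptor gene, it measured 0.970 and 1.64 against 10.8 and 16.9 CPM (3.41, SE 0.40). In each of these 3 the fasted libraries lay lowest of the 3 states, and in none did fasted and leptin libraries overlap. The peaks near Snapc3 (3.55) and Lypd6 (3.46) made up the rest. In the fasting comparison these 5 peaks had log2 fold changes of -1.83 to -2.32, measured against the same fasted libraries.

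The largest leptin closings were at intergenic peaks nearest to Etv1 (-3.36), Ptbp2 (-2.80), Penk (-2.76), 4921530L21Rik (-2.75) and Dtwd2 (-2.72). At Etv1, an ETS factor gene, the peak fell from 3.62 and 2.34 to 0.282 and 0.283 CPM (SE 0.65, adjusted p = 0.00471, edgeR). The peak 289758 bases from Penk, the proenkephalin gene, fell from 6.98 and 2.52 to 1.06 and 0.396 CPM and was the only one of the 5 with the glucocorticoid-type letters. None of the 5 held STAT letters.

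In the AgRP gene list leptin opened 6 (9.38%) and closed 5 (7.81%) of the 64 peaks, beside 7.43% and 2.46% of all followed peaks. The opened ones included a peak 84350 bases upstream of Npy2r, an NPY receptor gene (1.75 and 2.52 in fasted against 8.03 and 7.30 CPM after leptin, log2 fold change 1.83, adjusted p = 0.00317, edgeR), and a peak 68855 bases upstream of Irs4, an insulin receptor substrate gene (1.76, adjusted p = 0.00482, edgeR), neither with STAT letters. Peaks at Isl1 (0.99), Ghsr (1.41), the ghrelin receptor gene, and Nr5a2 (1.02 and 1.23) opened as well. The closed ones were at Acvr1c (-1.32 and -1.38), Nr5a2 (-1.39 and -1.37) and Otp (-1.37), a homeodomain gene of neuroendocrine neurons. STAT letters stood in 16 of the 64 peaks. Among the called ones these were the opened peak at Ghsr and the closed peaks at Nr5a2 and Otp, and no other. The Agrp promoter, with its STAT letters, measured 144 and 122 CPM in fasted and 135 and 112 CPM in leptin-treated libraries (-0.11, SE 0.12, adjusted p = 0.773, edgeR).

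Few selective peaks lay in promoters, and some of these changed. Of 66 followed, 14 (21.2%) opened and 8 (12.1%) closed with fasting, beside 23.3% and 20.3% of the followed peaks outside promoters. Among the opened were Emp1 (1.91, adjusted p = 2.14e-04, edgeR), an epithelial membrane protein gene, Gcnt2 (1.57) and Gpr35 (1.68), a G protein-coupled receptor gene. Slc31a1, a copper transporter gene, closed (-1.76), as did Tm4sf4 (-1.49). After leptin 4 opened, namely Fgl1 (2.03), Trpm1 (1.88), Ppip5k2 (1.20) and Lrp11 (0.77), of which Trpm1 and Lrp11 hold STAT letters, and 0 closed. The opened share was 6.06%, against 7.45% outside promoters.

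The RNA libraries allowed the peaks to be set beside expression in the same neurons. Totals ran from 25581041 to 54511107 counts. Of the 3776 genes nearest to a selective peak 3534 were in the count table, and 2798 were tested between AgRP and POMC neurons of fed mice. There 97 (3.47%) were higher in AgRP neurons and 64 (2.29%) lower, against 1.06% and 1.11% of all 13453 genes tested (edgeR quasi-likelihood test, adjusted p under 0.05 and a log2 fold change of at least 0.5). Of the 8745 genes nearest to a peak but to no selective one, 0.435% were higher and 0.766% lower. The median log2 fold change was -0.03, beside -0.01 over all genes. DESeq2 called 177 higher and 131 lower, and an edgeR fit that used the samples of all 3 states and adjusted for state called 310 and 294. The shares over all genes given above are those of the first fit, and those under these 2 fits are not given here.

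The share of higher genes differed with the number of selective peaks per gene. It was 2.16% of 1573 genes with 1 such peak, 4.22% of 830 with 2 or 3, 6.47% of 371 with 4 to 9, and 16.7% of 24 with 10 or more (4 genes), while the share of lower genes was 2.54%, 2.17%, 1.62% and 0%. Genes with a selective peak in the promoter were higher in 9 of 44 (20.5%) and lower in 0. The counts depended on single libraries, with 15 higher and 4 lower genes without the first AgRP sample and 61 and 32 without sample 3, but 102 and 63 without sample 4. They also fell without either POMC sample, which leaves a lone POMC sample.

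**Figure D5:**
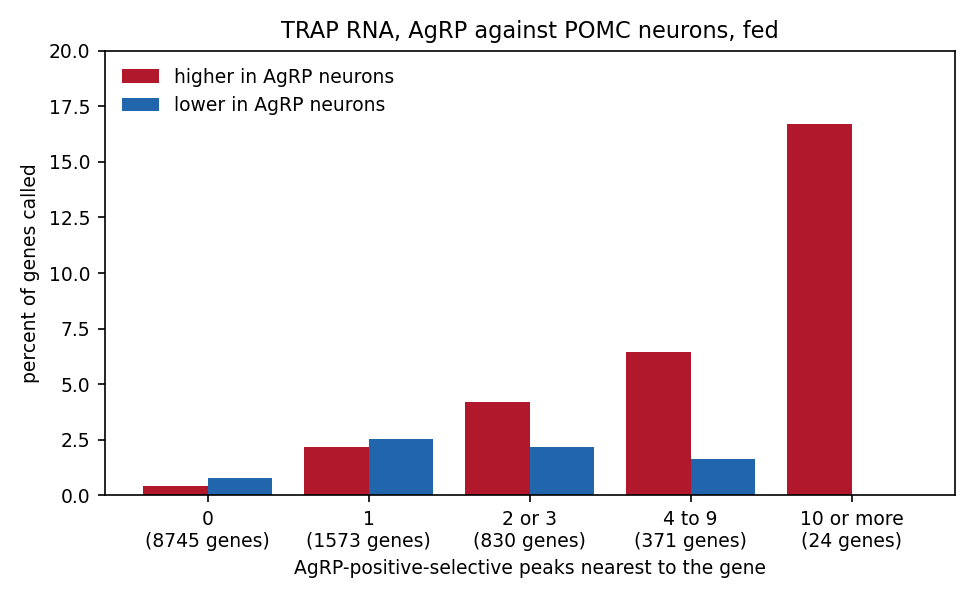
Percent of genes called higher or lower in AgRP than in POMC neurons (vertical axis, fed mice, 3 and 2 TRAP samples) by the number of AgRP-positive-selective peaks nearest to the gene (horizontal axis, genes tested in brackets). The higher share is 0.435% without and 16.7% with 10 or more such peaks.

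Agrp and Npy led the genes with selective peaks. Agrp measured 317, 513 and 339 CPM in AgRP samples against 5.97 and 9.83 CPM in POMC samples (log2 fold change 5.62, SE 0.37, adjusted p = 0.00349, edgeR quasi-likelihood test), and an antisense gene overlaps it in the annotation, which libraries that do not mark strand cannot separate. Npy measured 373, 802 and 655 against 10.6 and 19.0 CPM (5.36, SE 0.48), and Corin 81.8, 84.2 and 60.6 against 2.31 and 3.48 CPM (4.70, SE 0.27). The samples of the 2 lines were far apart in all 3. Serpina3c (4.52), a serine protease inhibitor with a selective peak at its start site, Aknad1 (3.83), Tgfbi (3.78), Vipr1 (3.61), a receptor for vasoactive intestinal peptide, Fgfr4 (3.44) and C1qtnf7 (3.35) were also among the first 10. Of the 19 AgRP list genes with a selective peak 9 were higher in AgRP neurons and 0 lower, and of the 7 without one (Hsd11b2, Gm8773, Slc32a1, Gad1, Npas4, Socs3 and Stat3) 2 were higher, among them Hsd11b2 with the largest change in the list (8.19).

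A selective peak did not imply higher RNA. Cartpt, the CART peptide gene that POMC neurons express, had 2 selective peaks and measured 33.4, 46.9 and 46.3 CPM in AgRP against 791 and 472 CPM in POMC neurons (-3.90, adjusted p = 0.00360, edgeR). Nms, the neuromedin S gene (-3.85), Slc13a4 (-3.11), Thsd4 (-3.04) and Npy1r, an NPY receptor gene (-2.85), had 1 selective peak each and were also lower in AgRP neurons.

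In fasted against fed AgRP neurons, 150 of 2796 genes nearest to a selective peak (5.36%) were higher and 42 (1.50%) lower, against 2.82% and 1.07% of all genes tested (edgeR). With scaling by library size alone 66 were higher and 33 lower, for which the shares over all genes are not given here. With the replicate number as a block, 215 were higher and 87 lower, beside 4.40% and 2.54% of all genes. Genes whose selective peaks included an opened but no closed one were higher in 70 of 812 (8.62%) and lower in 7. Those with a closed but no opened one were higher in 16 of 584 (2.74%) and lower in 16 (2.74%). With the block the counts were 95 higher and 20 lower for the former and 26 higher and 34 lower for the latter. Genes with followed selective peaks of which none was called were higher in 53 of 1123 (4.72%) and lower in 11 (0.980%). Their counts with the block were 75 and 23. Agrp itself measured 317, 513 and 339 CPM in fed and 726, 1496, 2004 and 1233 CPM in fasted samples, which did not overlap, with a log2 fold change of 1.81 (SE 0.47) that missed the threshold (adjusted p = 0.0524, edgeR) and passed it with the block (1.64, adjusted p = 8.74e-05). For Npy the change was 1.71 (adjusted p = 0.113) and 1.57 with the block (adjusted p = 1.16e-04, edgeR). Of the AgRP list genes with a selective peak, Gpr6 was higher (1.40) and Npy2r lower (-1.11), and with the block 10 of the 19 were higher and 1 lower. Single samples moved the counts, which were 90 higher and 25 lower without fasted sample 3, 99 and 24 without fed sample 1, 90 higher without fed sample 4, and 79 or 27 lower without fasted sample 4 or fed sample 3.

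After leptin 81 of 2796 genes (2.90%) were higher than in the fasted state and 53 (1.90%) lower, against 1.19% and 0.634% of all genes tested (edgeR), and 121 (4.33%) and 80 (2.86%) with the block, beside 1.81% and 1.10% of all genes. With scaling by library size alone 55 were higher and 25 lower, again without the shares over all genes. Without fasted sample 3 the counts were 53 and 35, without fasted sample 1 35 were lower, and without leptin sample 1 52 were higher. Genes with a leptin-opened but no closed selective peak were higher in 22 of 332 (6.63%) and lower in 0, and those with a closed but no opened one were higher in 1 of 110 and lower in 7 (6.36%). The corresponding counts with the block were 37 and 0, and 1 and 11. Genes with followed selective peaks of which none was called were higher in 57 of 2303 (2.48%) and lower in 46 (2.00%). Their counts with the block were 81 and 69. Of the 19 AgRP list genes with a selective peak, 1 was higher and 1 lower, and 1 and 3 with the block. Otp (-0.52, adjusted p = 0.228, and -0.54, adjusted p = 2.81e-04, with the block) and Acvr1c (-0.49, adjusted p = 0.376, and -0.50, adjusted p = 0.0157) passed only with the block (edgeR). Of the genes named here as higher than in POMC neurons, C1qtnf7 (2.32), Fgfr4 (1.47), Serpina3c (1.37) and Vipr1 (0.99) were higher after leptin and Aknad1 (-1.21) was lower. Socs3, the feedback inhibitor of leptin signalling and the strongest leptin response in the AgRP list (3.73, adjusted p = 3.62e-05, edgeR), was nearest to 6 peaks, none of them selective.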

How the data were processed

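Male C57BL/6J NuTRAP AgRP mice gave sorted AgRP-negative and AgRP-positive nuclei, ATAC-seq libraries of 3 states and TRAP RNA, with POMC RNA from NuTRAP Pomc mice (4 arcuate nuclei pooled per TRAP sample). The counts, as deposited, were raw: the authors aligned ATAC-seq reads to mm10 with Bowtie2, used MACS2 for peaks and bedtools for the reads in each merged peak, and aligned RNA with HISAT2 and counted it with featureCounts (Subread) on an annotation with fewer overlapping transcripts. The authors' log2 CPM table served for its list of peaks alone, and the authors' CUT&RUN files gave CTCF fold enrichment and, by SEACR, IRF3 signal per peak. Versions were not given in the sources used here. IgG CUT&RUN and whole arcuate RNA were not analysed here.

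CPM was the count over the library total. Features with a mean CPM over 1 entered edgeR 4.0.16 (R 4.3.3) quasi-likelihood fits with TMM scaling and Benjamini-Hochberg adjustment over all of them, and calls required an adjusted p under 0.05 and a log2 fold change of at least 0.5 either way. State libraries of both contrasts entered 1 fit, and the RNA comparison with POMC neurons used fed samples. The fits were tested on simulated data. Printed state CPM is TMM-scaled. Nearest genes and features came from GENCODE vM21 protein-coding transcripts and bases from RefSeq GRCm38, with Python 3.11.15, pandas 2.3.3, NumPy 2.4.6, bedtools 2.31.1 and matplotlib 3.10.9. Peaks shared at least 1 base to overlap.

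Same-numbered RNA samples deviated together (r = 0.535 to 0.810 over 10 pairs, against -0.641 to 0.640 over 30 others). Values with the number as a block are therefore given beside the main counts for fasting and leptin and for some named genes. Nothing in the labels says that replicates were separate groups of animals for each assay, and p-values measure the spread between these samples. The selective peaks and the gene and motif lists were chosen with earlier results of these data known. Named were the peaks of the AgRP list, the 10 with the highest CPM and ratio, the 5 largest called changes per direction, the 10 genes with the most peaks, the 3 strongest IRF3 overlaps, and the 10 genes most higher and 5 most lower in AgRP neurons. Promoter peaks, the leading letters and other listed genes were named outside this rule after their values were seen, and a few that the rule names are not reported here. Alternatives were DESeq2 1.42.0, library-size scaling, other thresholds, the block and leaving out each library.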

Additional observations from a re-analysis of the deposited data

Results flagged for a closer look

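In 106 groups of 4 or more RNA samples of the named genes, 13 held a sample far from the others by Dixon's criterion, which chance flags in about 1 of 20 groups, and these groups share samples. Sample 4 stood above the rest of its group at 5 genes, of which Dlg2 and Cntnap2 have many selective peaks (16 and 15) and Gad2, Thsd4 and Insr few (2, 1 and 1). Dlg2 measured 1074 CPM in fasted sample 4 against 288 to 326 in the other fasted samples, and 983 CPM in leptin sample 4 against 333 to 417. Cntnap2 measured 360 CPM in fasted sample 4 (others 242 to 254) and 388 CPM in leptin sample 4 (others 243 to 261). Gad2 was at 1158 CPM in fasted sample 4 (726 to 775), Thsd4 at 18.7 CPM (10.8 to 11.8) and Insr at 118 CPM (90.9 to 95.5) in leptin sample 4. Fed samples, fewer than 4, were not examined in this way. Fed sample 4 was nonetheless the highest fed sample at these 5 genes, such as Dlg2 (942 against 480 and 421 CPM), Cntnap2 (322 against 248 and 223 CPM) and Gad2 (1054 against 724 and 800 CPM).

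The other flagged samples were spread over the groups. Celf4 measured 366 CPM in leptin sample 1 (444 to 456), and Sst 46.0 CPM in the same sample (107 to 116). C1qtnf7 measured 5.16 CPM in fasted sample 1 (2.46 to 2.85), Ghsr 234 CPM in fasted sample 2 (326 to 328), Cited1 364 CPM in fasted sample 3 (266 to 281) and Npy1r 28.9 CPM in leptin sample 2 (22.7 to 22.8).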

How the results depend on the processing

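Of 91 values recomputed with all libraries, 63 stayed near the first value and 28 were taken as moved. For counts the limit was 1.5 times, whereas some shares were taken as moved at less, such as that of the AP-1 letters (38.2% to 45.6%). A log2 ratio of at least 1.5 or 3 gave 12302 or 1556 selective peaks, and those at 3 or more had 285 fasted-opened and 383 fasted-closed, and 159 leptin-opened and 47 leptin-closed peaks. Leptin-closed peaks numbered 455 with the replicate number as a block, where 780 opened, and 323 when fasted and leptin libraries were fitted alone. Fasting gave 1826 opened and 1699 closed peaks with that block. Shares over all peaks under these fits are not given here. Same-numbered ATAC libraries deviated together weakly or not at all (r = -0.001 to 0.158), and the number was taken as a name only, although replicate 1 had the larger share of counts in chrM (1.14% to 1.65% against 0.683% to 0.731%) and in selective peaks in all 3 states. No paired analysis was possible for AgRP against POMC neurons because the samples share 1 number.

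Higher and lower genes against POMC neurons were 177 and 131 with DESeq2, 310 and 294 with all 3 states, and 9 and 0 for promoter peaks, with 37 lower for start sites within 50 kb. With library size alone, 66 genes were higher with fasting and 25 lower after leptin, without the shares over all genes. The block gave 87 lower genes with fasting and 80 after leptin, and start sites within 50 kb gave 33 lower after leptin. A wider promoter window held 1.77% of selective peaks, against 22.3% of all peaks. Requiring 0.5 of the ATAC peak gave overlaps of 9.27% (AgRP CTCF), 0.886% (cerebellum) and 0.443% (IRF3), against 8.66%, 17.0% and 2.88% of all peaks. Over whole peaks AP-1, STAT, glucocorticoid-type and CTCF letters occurred in 45.6%, 31.1%, 4.57% and 3.71%.

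Leaving out each library in turn gave 7230 to 8203 selective peaks, of which 6187 to 6288 were among the 7226. Fasting gave 1119 to 1525 opened and 891 to 1540 closed peaks, and leptin 164 to 381 opened and 0 to 401 closed. Opened peaks with AP-1 letters numbered 774 to 1148 and with STAT letters 65 to 226, the subsets having been added after the data were seen. In RNA the ranges were 15 to 102 higher and 4 to 63 lower genes against POMC neurons, 90 to 162 and 24 to 79 with fasting, and 52 to 93 and 35 to 47 after leptin. A lone library is assumed to vary like the others. The causes were not tested. With 2 ATAC libraries per group many changes, not only small ones, may have gone undetected, and a peak that was not called is not shown to be unchanged.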
